A study of Canis lupus familiaris with 16 samples.

Results

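The genes described here act in glycolysis and in the response to low oxygen, and they were chosen by symbol in the deposited table of gene counts, where 10 of 10 were found among 41818 genes. They are the glucose transporter SLC2A1, the glycolytic enzymes HK2, PFKP, ALDOA, PGK1, ENO1 and PKM, lactate dehydrogenase LDHA, carbonic anhydrase CA9 and the transcription factor subunit HIF1A. The study sequenced RNA, depleted of ribosomal RNA, from 16 soft tissue sarcomas of dogs that had been fixed in formalin and kept in paraffin, to ask which genes separate 3 types: perivascular wall tumors (PWT), fibrosarcomas (FS) and tumors of the peripheral nerve sheath (PNST). The tumor types used here are the molecular identities of the study, in which S1-10, diagnosed as PWT, was placed with PNST and S2-08, diagnosed as FS, with PWT. Because these 2 placements came from expression in the same libraries, the grouping rests in part on the counts compared here. Titles begin with S1 for 9 tumors, sequenced in 3 runs each, and with S2 for 7 tumors, sequenced in 1 run each, and the runs of a tumor were summed.

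The 4 FS were S1-02, S1-11, S1-12 and S2-06, from dogs aged 9 to 13 years, with a largest dimension of 2 to 20 cm (median 5 cm). Their grades were 1/2 in 1 tumor, 2 in 2 and 3 in 1, and 507728 to 2781899 reads per tumor fell on genes (median 2023563.5). The 6 PNST were S1-03, S1-04, S1-05, S1-09, S1-10 and S2-07, from dogs aged 8 to 13 years, measuring 1.3 to 9 cm (median 3.15 cm). They were of grade 1 in 3 tumors, 1/2 in 1 and 2 in 2, with 1545839 to 4311876 reads on genes (median 2984704). The 6 PWT were S1-07, S2-03, S2-04, S2-08, S2-09 and S2-11, from dogs aged 2 to 14 years, measuring 2.5 to 6.5 cm (median 5 cm). They were of grade 1 in 4 tumors, 2 in 1 and 3 in 1, with 726025 to 2234165 reads on genes (median 1611104.5). The prefix was spread unevenly, with 3 S1 tumors among the 4 FS, 5 among the 6 PNST and 1 among the 6 PWT. S1-04 and S1-05 have identical entries for age, size and grade and may come from the same dog, and they were counted as 2 tumors.

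Glycolysis splits glucose into pyruvate, which lactate dehydrogenase can turn into lactate, and many tumors run this pathway at a high rate even where oxygen is present. When oxygen is low, the protein HIF-1alpha escapes degradation, pairs with ARNT and raises transcription of glucose transporters, most glycolytic enzymes, LDHA and CA9. Control of HIF-1alpha by oxygen acts mainly on the stability of the protein, so the level of HIF1A RNA is not a measure of its activity.

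Levels are given as CPM, a gene's count scaled by the tumor's TMM-corrected total on tested genes, so that 1 count equals 0.284 CPM in S1-03, the deepest tumor, and 1.84 CPM in S1-12, the shallowest. They compare tumors for 1 gene, not genes with each other. For each tumor type, edgeR's quasi-likelihood test compared its tumors with both other types pooled over the 15408 genes that had at least 10 counts in at least 4 tumors. A gene was called higher or lower when its p-value, adjusted by the Benjamini-Hochberg method over all genes tested, was below 0.05 and its absolute log2 fold change was above 1. In FS, 3 of the 10 genes (SLC2A1, HK2 and HIF1A) were called higher, beside 5.78% of all genes tested, and 0 were called lower, beside 3.68%. At an unadjusted p below 0.05, edgeR had 5 of the 10 genes and 3915 of all genes in this comparison. DESeq2's Wald test also called 3 of the 10, and 2090 of all genes with default settings (2108 and 2087 with its other settings). In PNST, edgeR called 0 of the 10 genes and 0% of all genes, with 0 of the 10 and 2415 of all genes at an unadjusted p below 0.05, while DESeq2 called 0 of the 10 and 291 of all genes. In PWT, 1 of the 10 genes (PKM) was called lower, beside 0.714% of all genes, and 0 were called higher, beside 1.41%. At an unadjusted p below 0.05 this edgeR comparison had 7 of the 10 genes and 3449 of all genes. With default settings DESeq2 called 2 of the 10 lower (PKM and SLC2A1), and 875 of all genes in either direction. Single tumors moved these counts. In FS, edgeR called 1 of the 10 and 911 of all genes without S1-11, in place of 3 and 1457, and in PWT it called 0 of the 10 without any of 12 tumors, named with PKM below, and 11 of all genes without S2-11 or 14 without S2-04, in place of 327.

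All 10 log2 fold changes were positive in FS, with a median of 0.98, beside a median of 0.0039 over all genes tested, of which 50.2% were positive. In PWT all 10 were negative, with a median of -1.15, beside -0.079 over all genes. In PNST 5 were positive and 5 negative, from -1.21 to 0.39, with a median of -0.066 beside -0.063 over all genes, and the median was 0.62 among S2 tumors alone. The 3 comparisons share all 16 tumors, so a gene high in FS tends to be low in the others by construction. The order of the medians was FS above PNST above PWT for 8 of the 10 genes, and FS above PWT above PNST for LDHA and HIF1A.

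**Figure D1:**
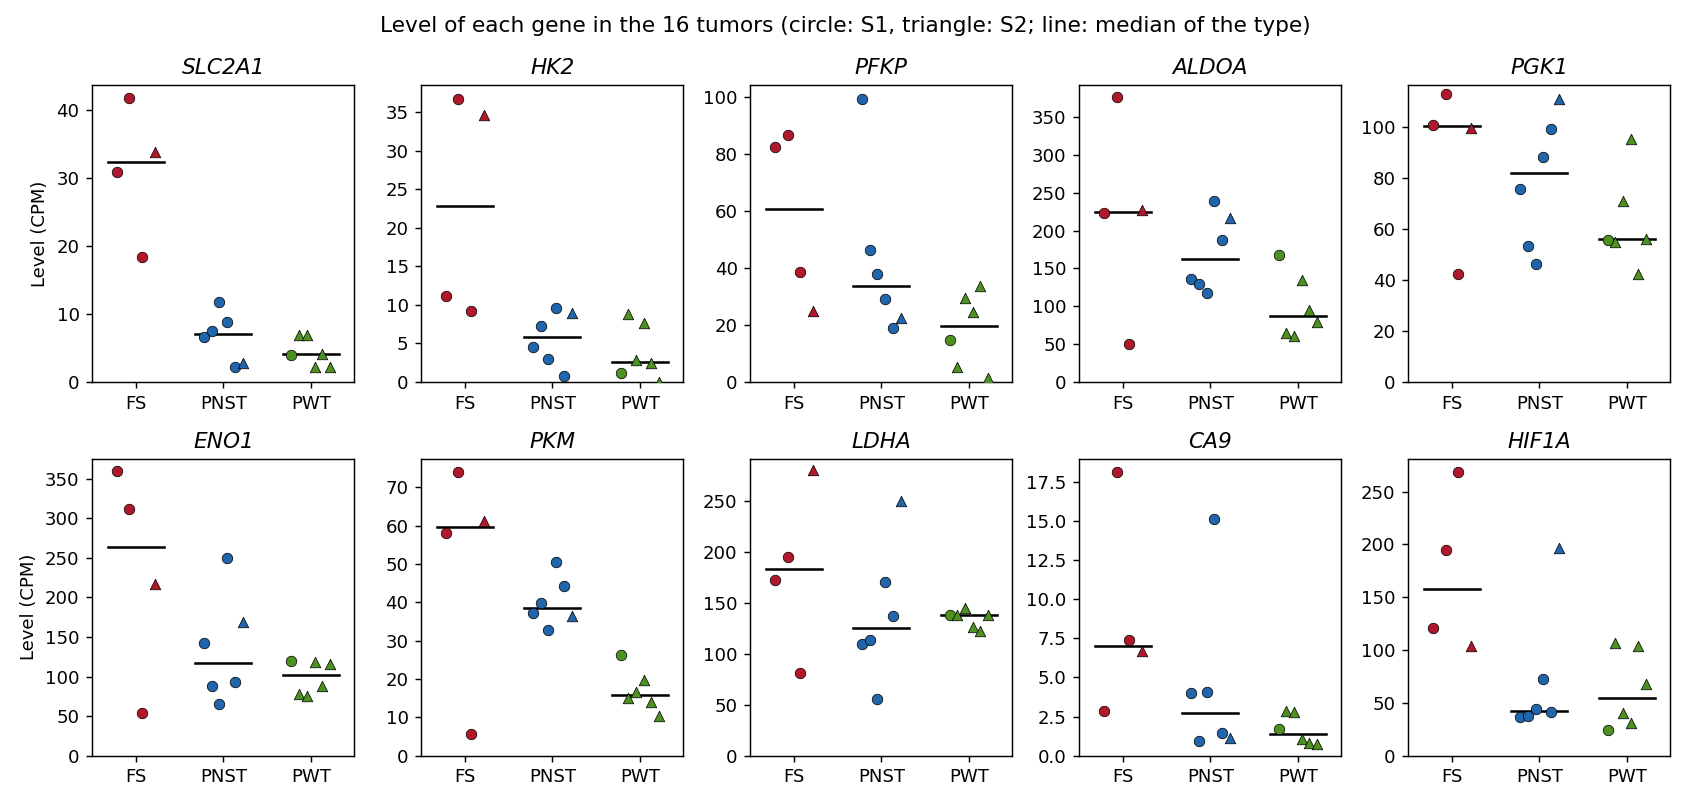
Level of each of the 10 genes in CPM (vertical axis) in the 16 tumors by type, with circles for S1 tumors, triangles for S2 tumors and a line at the median of the type. SLC2A1 is the gene whose 4 FS values, from 18.4 to 41.7 CPM, all lie above those of the other 12 tumors.

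SLC2A1 encodes GLUT1, the transporter that carries glucose into most cells. In FS its level was 30.8 CPM in S1-02, 41.7 in S1-11, 18.4 in S1-12 and 33.7 in S2-06. In PNST it ran from 2.17 CPM (S1-10) over a median of 7.04 to 11.7 (S1-05), and in PWT from 2.19 (S2-08) over 4.04 to 6.97 (S2-04). The 4 FS values lay above all 12 others, with S1-12 nearest to them, while PNST and PWT overlapped. Such a gap, with the lowest FS above the highest of the other tumors, was found for 1 of the 10 genes and for 1.56% of all genes tested (241 of 15408). The level in S1-12 came from 10 counts, with a 95% counting interval of 8.83 to 33.9 CPM, which reaches below the highest PNST value. Intervals given here cover counting error only. By edgeR, SLC2A1 was 5.65-fold higher in FS (log2 fold change 2.50, SE 0.371, adjusted p = 0.000525), in 4 of 4 FS. It was called in 29 of the 29 alternatives in which it was tested, at log2 fold changes from 2.12 to 3.11 (adjusted p from 1.64e-07 to 0.0319). With bulk RNA, more cells of a kind that expresses a gene and more RNA per cell cannot be told apart, here or in any result that follows.

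Within the S1 tumors, the 3 FS had 18.4 to 41.7 CPM of SLC2A1 and the 6 others 2.17 to 11.7, and within the S2 tumors the single FS had 33.7 and the 6 others 2.19 to 6.97. The separation was therefore present under both prefixes. In PWT, SLC2A1 had a log2 fold change of -1.90 (SE 0.622) that did not pass in edgeR (adjusted p = 0.0916, over alternatives 0.0160 to 0.956), with 6 of 6 PWT below the median of the other tumors. It did pass in 1 model of all 3 types (adjusted p = 0.0160) and in DESeq2 (adjusted p = 0.0274).

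HK2 encodes hexokinase 2, which traps glucose in the cell by phosphorylation at the first step of glycolysis. Its level in FS was 11.1 CPM in S1-02, 36.7 in S1-11, 9.21 in S1-12 and 34.7 in S2-06. It ran from 0.725 CPM (S1-10) over a median of 5.89 to 9.65 (S1-09) in PNST, and from 0 (S2-11) over 2.62 to 8.88 in PWT. S1-11 and S2-06 stood far above all other tumors and S1-02 just above them, whereas S1-12, with 5 counts, lay inside the range of PNST. The counting interval of the 0 counts in S2-11 reached up to 2.76 CPM, where 3 counts would give 2.24 CPM. By edgeR, HK2 was 4.71-fold higher in FS (log2 fold change 2.23, SE 0.568, adjusted p = 0.0169), with 4 of 4 FS above the median of the other tumors and 3 of 4 above all of them. The call was held in 24 of 30 alternatives (adjusted p from 0.00522 to 0.164) and was lost without S1-11 (log2 fold change 1.91, adjusted p = 0.0856), without S2-06 (1.98, adjusted p = 0.0628) and with the histological groups (2.10, adjusted p = 0.0721). Among S1 tumors alone, an alternative added after seeing the data, it was 2.13 with an adjusted p of 0.0946 by edgeR. Among S2 tumors, where S2-06 was the only FS, it was 2.65.

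PFKP encodes the platelet form of phosphofructokinase, the enzyme of the main regulated step of glycolysis. In FS it had 82.5 CPM in S1-02, 86.6 in S1-11, 38.7 in S1-12 and 24.7 in S2-06, against 18.8 to 99.2 in PNST (median 33.5) and 1.5 to 33.5 in PWT (median 19.7). The types overlapped, since the highest level of all was in the PNST S1-03 and the lowest in the PWT S2-11. Neither the difference in FS (log2 fold change 0.94, SE 0.568, adjusted p = 0.321 by edgeR, 3 of 4 FS above the median of the others) nor that in PWT (-1.45, SE 0.526, adjusted p = 0.119, 6 of 6 below it) passed. Over alternatives the adjusted p in PWT ran from 0.0476 to 0.956, the lowest from DESeq2 with its filtering set for 0.05.

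The next steps of glycolysis are carried by ALDOA, which cuts fructose bisphosphate, by PGK1, which makes the first ATP, and by ENO1, which makes phosphoenolpyruvate. ALDOA had 223 CPM in S1-02, 376 in S1-11, 49.7 in S1-12 and 227 in S2-06, against 118 to 239 in PNST (median 162) and 61.3 to 168 in PWT (median 87.5). PGK1 had 101, 113, 42.4 and 99.8 CPM in the same 4 FS, against 46.1 to 111 in PNST (median 81.9) and 42.5 to 95.1 in PWT (median 56.0). ENO1 had 360, 311, 53.4 and 217 CPM in them, against 65.4 to 250 in PNST (median 117) and 75.3 to 120 in PWT (median 102). For each of these 3 genes S1-12 was the lowest of the 16 tumors, while the other 3 FS were among the higher ones, and the types overlapped. By edgeR, ENO1 reached a log2 fold change of 1.02 in FS (SE 0.363, adjusted p = 0.0813, 3 of 4 FS above the median of the others), which did not pass. It passed without S1-12 (1.34, adjusted p = 0.0138) and without S1-09 (1.17, adjusted p = 0.0303), and its adjusted p over alternatives ran from 0.0138 to 0.307. ALDOA (0.69, SE 0.387) and PGK1 (0.34, SE 0.277) did not pass in FS, with adjusted p of 0.278 and 0.480. In PWT the log2 fold changes were -0.92 for ALDOA, -0.41 for PGK1 and -0.82 for ENO1, and none passed (adjusted p by edgeR from 0.128 to 0.338).

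PKM encodes pyruvate kinase, whose reaction yields pyruvate and ATP, and gene counts do not separate its M1 and M2 splice forms. Its level was 58.1 CPM in S1-02, 74.0 in S1-11, 5.52 in S1-12 and 61.3 in S2-06. It was 32.7 to 50.4 CPM in PNST (median 38.6) and 10.5 to 26.2 in PWT (median 15.8). All 6 PWT lay below all 6 PNST and below 3 of the 4 FS, and only S1-12 was lower, with 3 counts and an interval of 1.14 to 16.1 CPM. The share of all genes with such a gap between PWT and PNST was not counted. All PWT lay below all other tumors for 0 of the 10 genes and for 43 of the 15408 genes tested. By edgeR, PKM was lower in PWT, with a log2 fold change of -1.38 (SE 0.349, adjusted p = 0.0439) and 6 of 6 PWT below the median of the other tumors. This call was near the threshold and held in 9 of 30 alternatives, over which the adjusted p ran from 0.00225 to 0.956. It was lost without any of 12 tumors, with adjusted p of 0.0567 (S1-02), 0.0673 (S1-11), 0.0554 (S1-03), 0.0604 (S1-04), 0.0541 (S1-05), 0.0601 (S1-09), 0.0544 (S1-10), 0.0807 (S2-03), 0.0979 (S2-04), 0.0623 (S2-08), 0.0853 (S2-09) and 0.117 (S2-11), and log2 fold changes of -1.54 to -1.27 over all tumors left out in turn.

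For PKM the prefix and the type could be separated only in part. With the prefix as a term in the edgeR model, the log2 fold change in PWT was -1.30 with an adjusted p of 0.304. Within the S1 tumors the single PWT, S1-07, had 26.2 CPM, below the 5 PNST of that prefix and above the FS S1-12, and within the S2 tumors the single PNST, S2-07, had 36.4 CPM, above the 5 PWT. In FS, the log2 fold change of PKM was 0.82 (adjusted p = 0.244 by edgeR), with 3 of 4 FS above all other tumors and S1-12 below all. In the RefSeq annotation PKM overlaps 2 uncharacterised genes, LOC119866934 and LOC111093326, which together had 2590 counts over the 16 tumors against 1259 for PKM. Whether reads were counted by strand is not stated, so how these reads were divided is uncertain. An overlapping gene was also annotated for SLC2A1 (41 counts, against 391), ALDOA (56, against 5569) and HIF1A (194, against 2693).

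LDHA encodes the lactate dehydrogenase subunit that favours the step from pyruvate to lactate. It had 172 CPM in S1-02, 195 in S1-11, 81.0 in S1-12 and 280 in S2-06, against 55.5 to 249 in PNST (median 125) and 122 to 145 in PWT (median 138). The PWT lay close together inside the range of both other types. The log2 fold changes were 0.42 in FS (SE 0.297, 95% interval -0.16 to 1.00, adjusted p = 0.411) and -0.22 in PWT (SE 0.283, interval -0.78 to 0.33, adjusted p = 0.670) by edgeR. FS lay above the median of the other tumors in 3 of 4 and PWT below it in 6 of 6.

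CA9 encodes a carbonic anhydrase at the cell surface that handles acid and is widely used as a tissue marker of hypoxia. It was covered by 155 counts over all 16 tumors. In FS it had 2.87 CPM in S1-02 (8 counts), 18.1 in S1-11 (33 counts, of which 5, 6 and 22 came from its 3 runs), 7.37 in S1-12 (4 counts) and 6.65 in S2-06 (14 counts). It had 0.943 to 15.1 CPM in PNST (median 2.71) and 0.748 to 2.83 in PWT (median 1.4). S1-11 and the PNST S1-09, with 50 counts, stood above all other tumors, and the FS lay above all PWT, by a narrow gap in S1-02. The share of all genes with such a gap between FS and PWT was not counted. The log2 fold changes by edgeR were 1.42 in FS (SE 0.657, adjusted p = 0.180, 4 of 4 above the median of the others) and -1.84 in PWT (SE 0.685, adjusted p = 0.126, 6 of 6 below it), and neither passed. It had 1 or 2 counts in 5 of the 16 tumors.

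HIF1A encodes the oxygen-regulated subunit of HIF-1. Its level was 121 CPM in S1-02, 195 in S1-11, 269 in S1-12 and 104 in S2-06. It was 36.4 to 197 CPM in PNST (median 42.4) and 24.5 to 106 in PWT (median 54.2). S1-12, which was lowest for 4 of the other genes, was highest here, and the PNST S2-07, at 197 CPM, lay far above the other 5 PNST. By edgeR, HIF1A was 2.56-fold higher in FS (log2 fold change 1.35, SE 0.428, adjusted p = 0.0493), with 4 of 4 FS above the median of the other tumors and 1 of 4 above all. The call held in 11 of 30 alternatives, over which the adjusted p ran from 0.00734 to 0.928. It was lost without any of 12 tumors, with adjusted p of 0.0537 (S1-02), 0.128 (S1-11), 0.171 (S1-12), 0.0672 (S1-03), 0.0627 (S1-04), 0.0695 (S1-05), 0.0580 (S1-09), 0.0723 (S1-10), 0.0647 (S1-07), 0.0702 (S2-04), 0.0710 (S2-08) and 0.0642 (S2-11), and log2 fold changes of 1.06 (without S1-12) to 1.63 over all tumors left out in turn. It was also lost with S1-04 and S1-05 summed (adjusted p = 0.0671 by edgeR), with the histological groups (log2 fold change 1.03, adjusted p = 0.285), without the 2 tumors placed in another type (1.22, adjusted p = 0.106) and with no count filter (adjusted p = 0.0522).

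HIF1A was also looked at within each prefix. Among S1 tumors the 3 FS had 121 to 269 CPM and the 6 others 24.5 to 72.4, with no overlap, whereas among S2 tumors the single FS had 104 CPM, inside the range of the 6 others (31.2 to 197). How many of all genes show no overlap among S1 tumors was not counted. Fitted apart, after seeing the data, the log2 fold change in FS was 2.20 in S1 tumors (adjusted p = 0.00734) and 0.19 in S2 tumors (adjusted p = 0.928). The difference between prefixes, also tested after seeing the data, was -2.0 on the log2 scale (S2 minus S1, SE 0.933) and did not pass in edgeR (adjusted p = 0.584, with 1 FS on the S2 side). In PWT, HIF1A had a log2 fold change of -0.82 (adjusted p = 0.332), with 4 of 6 PWT below the median of the others.

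**Figure D2:**
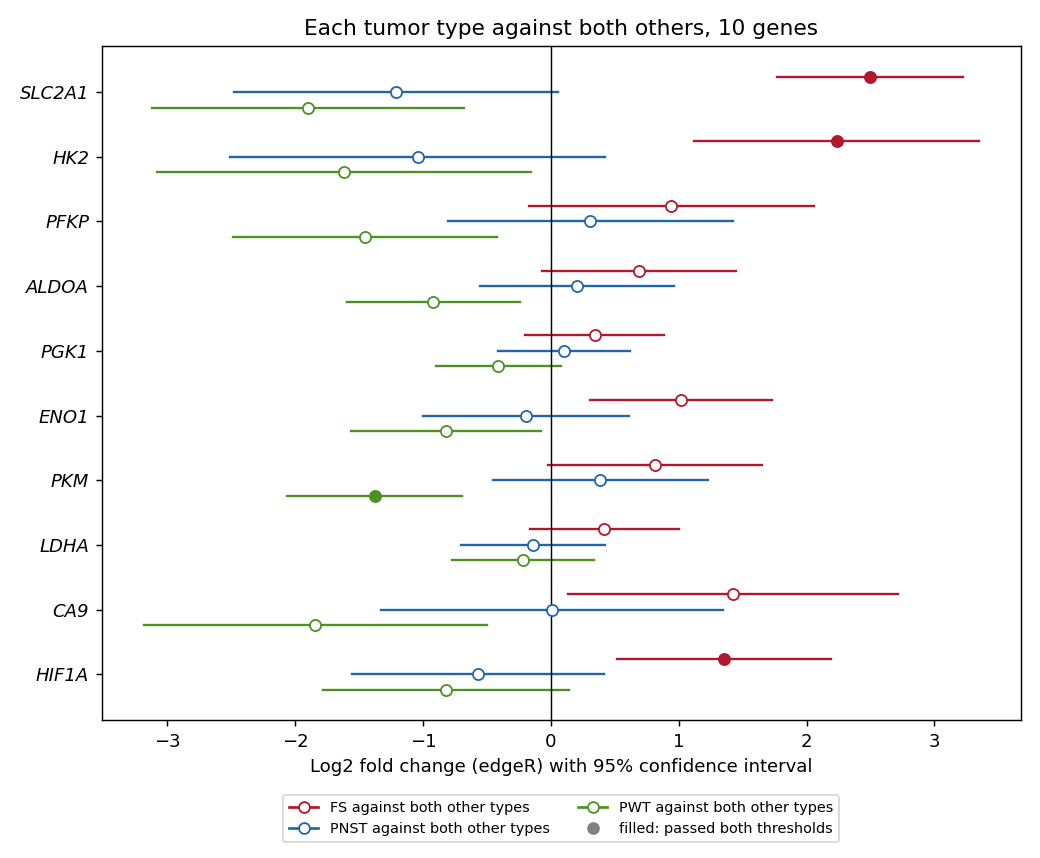
Log2 fold change of each of the 10 genes by edgeR (horizontal axis, with 95% intervals as lines) for each tumor type against both others, with filled points where both thresholds were passed. All 10 points for FS lie above 0 and all 10 for PWT below it, and SLC2A1, HK2 and HIF1A in FS and PKM in PWT are filled.

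The tumors differed in how many of the 10 genes were high together. S1-11 had the highest level of 6 of the 10 genes and was among the 4 highest tumors for all 10. S1-02 was among the 4 highest for 9 genes and S2-06 for 8. S1-12, the FS with the fewest reads, was among the 4 highest for 3 genes only (SLC2A1, CA9 and HIF1A) and lowest for 4 (ALDOA, PGK1, ENO1 and PKM). Among PNST, S1-09 was among the 4 highest for 5 genes, and S2-11, a PWT, was lowest for 3. At equal depth, counts in the 3 runs of a tumor differed somewhat more than by counting error (chi-square 233 with 180 degrees of freedom, 1.29 per degree).

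**Figure D3:**
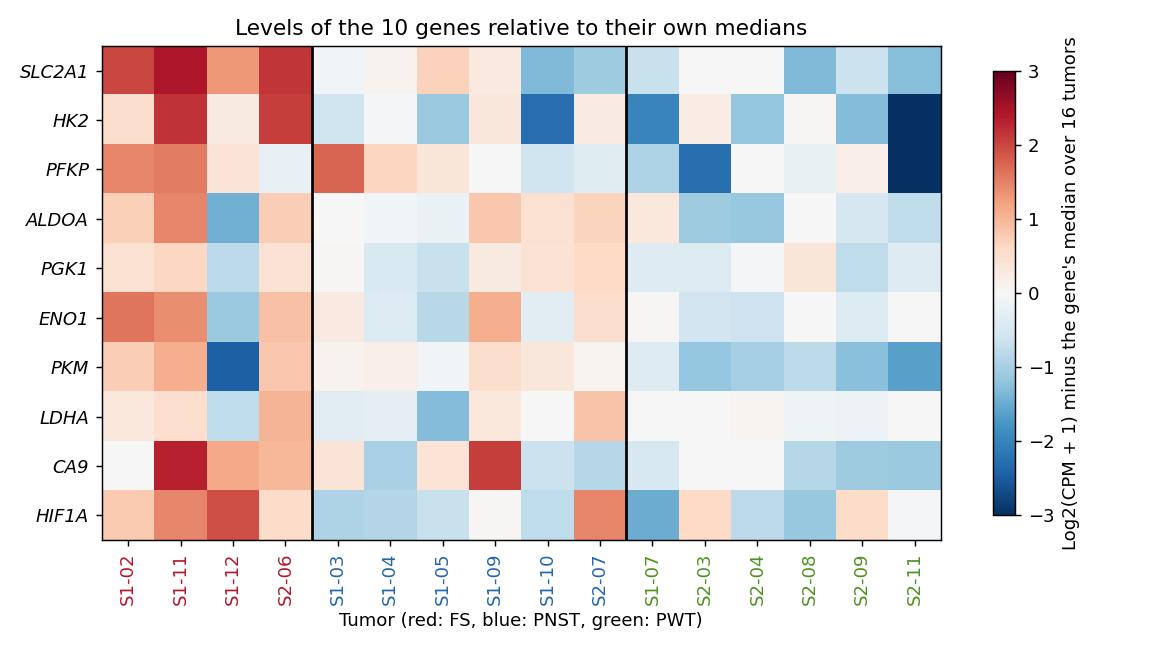
Level of each gene in each tumor as log2(CPM + 1) minus the gene's median over the 16 tumors, with the colour scale stopped at -3 and 3 and tumors ordered by type. S1-11, S1-02 and S2-06 are above the median for most genes, and S1-12 is above it for SLC2A1, HK2, PFKP, CA9 and HIF1A but below it for ALDOA, PGK1, ENO1, PKM and LDHA.

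To see which genes had the most similar profile, each of the 10 was correlated with all others that had a median of at least 10 CPM, as Spearman's rho over the 16 tumors, which differ in type, prefix and depth, with no test. ALDOA was nearest to GAPDH (0.918), ENO1 (0.90) and PKM (0.90), and ENO1 to GAPDH (0.903), ALDOA (0.90) and DYNC1LI2 (0.841). GAPDH itself had 53.4 to 410 CPM in FS (median 235), 109 to 221 in PNST (median 165) and 47.4 to 153 in PWT (median 90.3), with S1-12 the lowest FS again. PKM was nearest to PFKFB3 (0.918), PLD2 (0.918) and WWP2 (0.915), and HK2 to HK1, VOPP1 and ZBTB47 (each 0.859). SLC2A1 was nearest to ABR (0.915), ARID1B (0.906) and SEMA4C (0.903). Of these, ARID1B had 99.4 to 124 CPM in FS, 16.3 to 50.3 in PNST and 6.73 to 40.1 in PWT, so that its FS values also lay above all others.

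PFKP was nearest to ARHGEF40 (0.868), THBS2 (0.862) and BGN (0.859), and PGK1 to VCP (0.888), PRDX6 (0.862) and EIF2AK1 (0.838). LDHA was nearest to CARNMT1 (0.888), FAM111A (0.868) and PRKAR2A (0.859). CA9 was nearest to MAP3K6 (0.844), RSAD1 (0.827) and AATF (0.809), and HIF1A to C1H9orf64 (0.850), XPR1 (0.838) and KDELR2 (0.835).

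The other genes of the pathway were taken from fixed lists. For comparison, edgeR called 5.78% of all genes tested higher and 3.68% lower in FS. In PWT it called 1.41% higher and 0.714% lower. Of 7 glucose transporters tested (10 in the list), 2 were higher in FS, with a list median of 1.10. The one beside SLC2A1 was SLC2A13, a transporter of myo-inositol, with 7.37 to 24.1 CPM in FS (median 13.0), 0 to 5.66 in PNST (median 1.99) and 0 to 7.27 in PWT (median 0.558). Its 4 FS values lay above all others, by a narrow gap. The log2 fold change was 2.78 (SE 0.721, adjusted p = 0.0191 by edgeR, over alternatives 0.00644 to 0.132), and it did not pass without S1-11 (2.41, adjusted p = 0.0871). It also did not pass with the histological groups (2.38, adjusted p = 0.130) or without S1-07, S1-11 and S2-09 (2.24, adjusted p = 0.132). Among S1 tumors alone it was 2.77 (adjusted p = 0.0724 by edgeR). SLC2A3 (1.10, SE 0.512, adjusted p = 0.184) and SLC2A12 (1.63, SE 0.590, adjusted p = 0.0855) did not pass in FS by edgeR. For SLC2A3, 3 of 4 FS lay above the median of the others. For SLC2A12, 1 FS did so, S1-02 with 251 counts (95% counting interval 79.2 to 102 CPM), and the 3 other FS, at 3.68 to 6.03 CPM, lay below that median (7.38). In PWT the list median was -0.47 and edgeR called 0 of the 7.

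Of 20 glycolytic enzymes tested (24 in the list), 18 had positive log2 fold changes in FS (median 0.66), and 2 were called higher, HK2 and HK1. HK1, the hexokinase of most tissues, had 66.3 to 124 CPM in FS (median 119), 22.8 to 74.5 in PNST (median 45.5) and 6.73 to 34.7 in PWT (median 22.3). Here 3 of the 4 FS lay above all other tumors, S1-12 lay within PNST, and PWT was lowest. By edgeR its log2 fold change in FS was 1.62 (SE 0.402, adjusted p = 0.0145), a call that held without each single tumor, with adjusted p over all alternatives of 0.00245 to 0.237. The HK1 call in FS was lost by edgeR with the histological groups (1.26, adjusted p = 0.169) and without S1-07, S1-11 and S2-09 (1.56, adjusted p = 0.0840). It was also lost without S1-02, S1-04, S1-05, S1-12 and S2-03 (1.87, adjusted p = 0.0611). In PWT, 19 of the 20 enzymes were negative (median -0.85) and 4 were called lower by edgeR, namely PKM, HK1 (-1.72, adjusted p = 0.0386), GPI (-1.15, adjusted p = 0.0315) and PFKM (-1.68, adjusted p = 0.0422). In 6 of 6 PWT each of the 4 lay below the median of the other tumors, and GPI lay below all of them in 4 and PFKM in 5. These 4 calls, like the 7 other calls in PWT named from the pathway lists, were each lost without S2-04 and without S2-11, with adjusted p of 0.0591 to 0.145 without S2-11 and 0.0695 to 0.101 without S2-04. With the prefix as a term, edgeR called 0 genes in PWT, so all of these calls were lost there too. The edgeR adjusted p was then 0.247 for HK1, and 0.275 for GPI and for PFKM. HK1 was also lost without S1-02, S1-11, S1-09, S2-03, S2-08 or S2-09 (adjusted p of 0.0511 to 0.0692), GPI without S2-09 (0.0583), and PFKM without S1-11, S1-03, S1-04, S1-05, S1-10, S2-03, S2-08 or S2-09 (0.0510 to 0.0848). Over all alternatives adjusted p reached 0.956 for HK1, GPI and PFKM, within S1 tumors, where a single PWT remained.

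Of 17 genes that handle pyruvate and lactate, 1 was higher in FS, the lactate transporter SLC16A1, and 1 lower, PDK4, a kinase that holds pyruvate dehydrogenase inactive (list median 0.14). Each is 5.88% of the list, near the share of all genes tested, which was 5.78% higher and 3.68% lower. SLC16A1 had 18.4 to 92.2 CPM in FS, 3.26 to 32.7 in PNST and 4.92 to 22.6 in PWT, and by edgeR a log2 fold change of 2.03 (SE 0.494, adjusted p = 0.0132, over alternatives 0.00452 to 0.134), with 3 of 4 FS above all others. Without S2-06 it did not pass (1.65, adjusted p = 0.0689). It also did not pass with the histological groups (1.65, adjusted p = 0.134) or without S1-07, S1-11 and S2-09 (1.98, adjusted p = 0.0636). Among S1 tumors alone it was 1.94 (adjusted p = 0.120 by edgeR). PDK4 had 5.70 to 55.4 CPM in FS (median 28.7), 33.9 to 121 in PNST (median 76.3) and 105 to 572 in PWT (median 207), so the types followed the reverse order of most of the 10 genes. Its log2 fold change by edgeR was -2.45 in FS (SE 0.702, adjusted p = 0.0312, 4 of 4 below the median of the others) and 2.12 in PWT (SE 0.461, adjusted p = 0.0291, 5 of 6 above all others). In FS, PDK4 did not pass in edgeR with the prefix as a term (-2.07, adjusted p = 0.0748) or with the histological groups (-1.28, adjusted p = 0.411). The FS call was lost without S1-02 (adjusted p = 0.0564), S1-12 (0.0798) and S2-06 (0.0813), with 0.00159 to 0.411 over alternatives, and the PWT call without S2-04 (0.0695) and S2-11 (0.0933), with 0.00103 to 0.956.

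In PWT, PDK1 was also higher (log2 fold change 1.05, adjusted p = 0.0472 by edgeR, 4 of 6 above all others), and PDK2 (-1.37, adjusted p = 0.0384, 4 of 6 below all others) and BSG (-1.06, adjusted p = 0.0388, 1 of 6 below all others) were lower. BSG encodes the partner that brings lactate transporters to the membrane. Of 11 genes of gluconeogenesis and glycogen, 1 was lower in PWT, PCK2 (-1.46, adjusted p = 0.0323, 4 of 6 below all others), and edgeR called 0 in FS. For PDK1, PDK2, BSG and PCK2 the adjusted p reached 0.956 to 0.972 over alternatives, and each was lost without several single tumors. These were S1-11, S1-12, S1-03, S1-04, S1-05, S1-09, S1-10, S2-03, S2-04, S2-08, S2-09 and S2-11 for PDK1 (adjusted p of 0.0571 to 0.136), and S2-03, S2-04, S2-09 and S2-11 for PCK2 (0.0627 to 0.0800). For PDK2 they were S1-04, S1-05, S1-09, S1-07, S2-03, S2-04, S2-08, S2-09 and S2-11 (0.0538 to 0.101), and for BSG S1-11, S1-03, S1-04, S1-05, S1-09, S2-03, S2-04, S2-08, S2-09 and S2-11 (0.0525 to 0.0933).

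Of 14 genes for HIF subunits and oxygen sensing, 0 were called in PWT (median 0.048). In FS, HIF1A was the 1 called (7.14% of the list, beside 5.78% of all genes called higher, list median 0.031). The other genes of this list had smaller log2 fold changes in FS, from -0.57 for CUL2 (SE 0.286) to 0.89 for EGLN3 (SE 0.792). Among them were 0.29 for EPAS1 (SE 0.452), -0.21 for ARNT (SE 0.208) and -0.057 for VHL (SE 0.292). Of 28 targets of HIF outside glycolysis, 21 were positive in FS (median 0.38). By edgeR 4 were called higher (14.3% of the list, beside 5.78% of all genes tested) and 1 lower (3.57%, beside 3.68%). The 4 were TFRC (log2 fold change 1.75, adjusted p = 0.0127), HMOX1 (1.65, adjusted p = 0.0206), LOX (1.56, adjusted p = 0.0339) and AK4 (1.56, adjusted p = 0.0342) by edgeR, with 2, 3, 1 and 2 of 4 FS above all others. MAFF was lower (-2.03, adjusted p = 0.0341), with 4 of 4 FS below all other tumors, as for 252 of the 15408 genes tested. Leaving out single tumors ended each of these calls. TFRC was lost without S2-06 (adjusted p = 0.176), HMOX1 without S1-02 (0.290), and MAFF without S1-12 (0.0670) and S2-06 (0.0883). LOX was lost without S1-11 (0.224), S1-07 (0.0505) and S2-08 (0.050), and AK4 without S1-02 (0.111), S1-11 (0.149), S1-10 (0.0506) and S2-08 (0.0519). By edgeR, LOX was also lost with the prefix as a term (log2 fold change 1.48, adjusted p = 0.0576). With the histological groups all 5 calls were lost (adjusted p of 0.104 to 0.222 by edgeR). Over alternatives the adjusted p of these 5 genes ran from 0.00350 to 0.810.

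Several classical targets of HIF-1 were not called in FS. Their log2 fold changes by edgeR were 0.45 for VEGFA (SE 0.488), -0.95 for NDRG1 (SE 0.385), -1.58 for ADM (SE 0.576), 0.74 for CA12 (SE 0.802) and 0.027 for BNIP3 (SE 0.265), with adjusted p of 0.0866 to 0.967. These 5 were picked after their values were seen. In PWT, 18 of the 28 targets were negative (median -0.20), and 2 were called higher, PLOD2 (1.25, adjusted p = 0.0399, 4 of 6 above all others) and INSIG2 (1.05, adjusted p = 0.0468, 5 of 6 above all others), with adjusted p over alternatives of 0.00457 to 0.956. PLOD2 was lost without S1-02, S1-11, S1-03, S1-04, S1-05, S2-03, S2-04, S2-09 or S2-11 (0.0522 to 0.101), and INSIG2 without S1-11, S1-12, S1-03, S1-04, S1-05, S1-10, S1-07, S2-04, S2-08, S2-09 or S2-11 (0.0539 to 0.145).

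Where edgeR called no gene of a list, the 2 of smallest p were looked at. Of 6 regulators of glycolysis tested, 0 were called in FS (median 0.33), where ADPGK (log2 fold change 0.65, adjusted p = 0.108, 3 of 4 FS above the median of the others) and TIGAR (-0.96, adjusted p = 0.138, 4 of 4 below it) came nearest. In PWT 0 were called (median -0.31), and PFKFB3 (-1.12, adjusted p = 0.0813, 6 of 6 below the median of the others) and ADPGK (-0.47, adjusted p = 0.286, 6 of 6 below it) came nearest. For gluconeogenesis and glycogen in FS they were PGM1 (1.19, adjusted p = 0.0549, 3 of 4 above all others) and PCK2 (0.99, adjusted p = 0.127, 4 of 4 above the median of the others). For the pentose phosphate pathway in FS they were TKT (0.65, adjusted p = 0.109, 3 of 4 above all others) and RPE (-0.63, adjusted p = 0.273, 3 of 4 below all others). For HIF subunits and oxygen sensing in PWT they were CUL2 (0.70, adjusted p = 0.0743, 5 of 6 above all others) and ELOB (-0.73, adjusted p = 0.139, 6 of 6 below the median of the others). For glucose transporters in PWT they were SLC2A1, given above, and SLC2A10 (-0.60, adjusted p = 0.138, 6 of 6 below the median of the others).

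In PNST edgeR called 0 genes in each of the 8 lists, as it did over all genes, and the 15 genes of smallest p named here had adjusted p of 0.136 to 0.609. Those with the lowest were ANLN (log2 fold change -1.45, 6 of 6 PNST below the median of the others), TFRC (-1.64, 6 of 6 below it), MPC2 (-1.21, 5 of 6 below it) and BSG (0.81, 6 of 6 above it). The others were SLC2A3, PYGM, PFKFB4, SLC2A12, ENO2, TALDO1, ALDOC, EGLN2, GYS1, CUL2 and TIGAR.

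**Figure D4:**
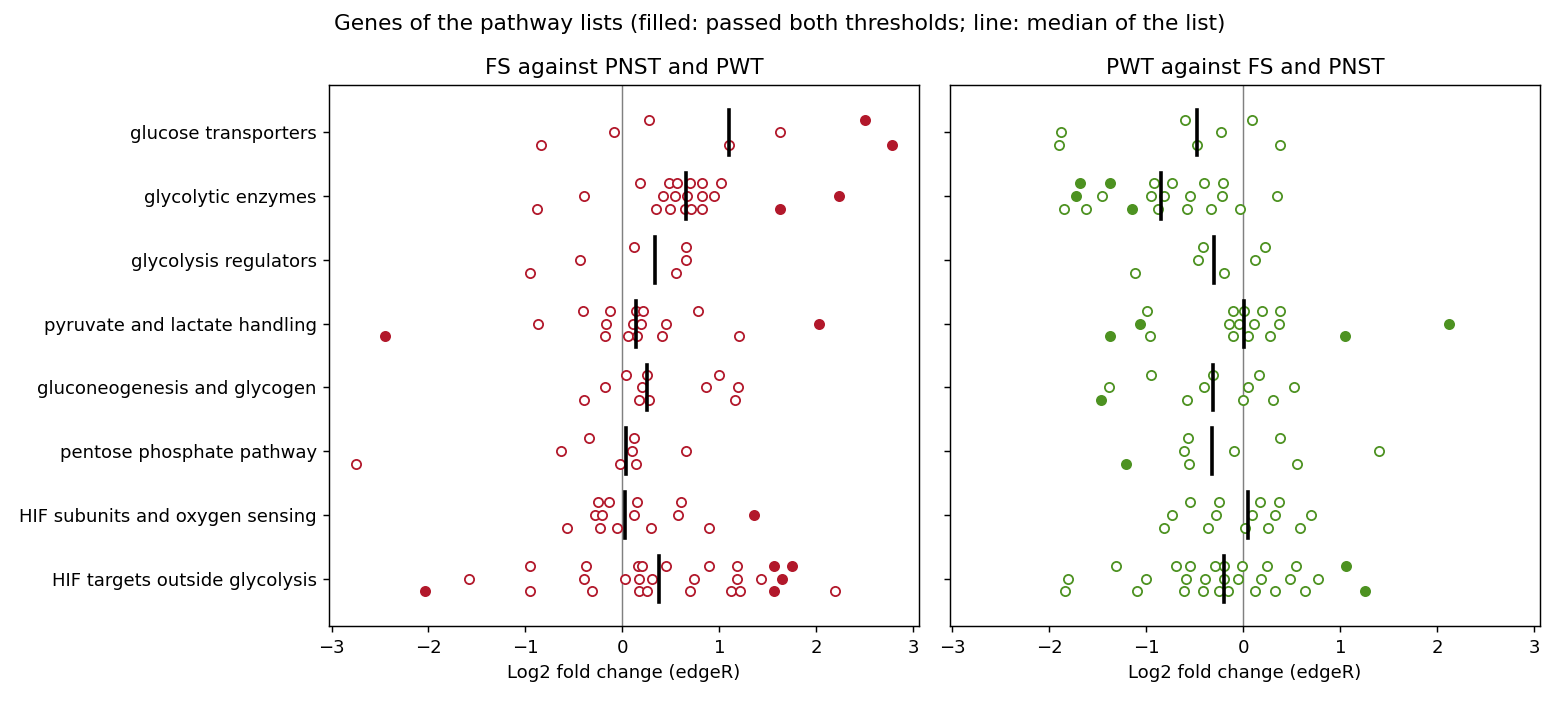
Log2 fold change by edgeR (horizontal axis) of each tested gene in 8 pathway lists for FS and for PWT, each against both other types, with a line at each list's median and filled points where both thresholds were passed. Glycolytic enzymes lie mostly above 0 in FS (median 0.66) and below it in PWT (median -0.85), while HIF subunits centre near 0 in both.

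Markers of other cells and of dividing cells moved with some of these results. Summed markers of skeletal muscle (14 of 14 in the table) reached 11349 CPM in S1-11, against 57.1 to 103 in the other 3 FS, 33.5 to 64.8 in PNST and, in PWT, 1322 in S1-07, 707 in S2-09 and 35.9 to 69.1 in the rest. The most abundant gene was TTN, with 9102 CPM in S1-11, and 3 of the 4 muscle genes tested were higher in FS. Without S1-07, S1-11 and S2-09, a choice made after seeing the data, SLC2A1 was still called in FS by edgeR, and HK2 (log2 fold change 1.79, adjusted p = 0.131) and HIF1A (1.28, adjusted p = 0.150) were not. Summed keratinocyte markers (11 of 12 in the table) reached 1704 CPM in S1-02, 1074 in S1-12, 1247 in S1-04, 1658 in S1-05 and 1317 in S2-03, and 9.75 to 120 in the other 11 tumors. Their most abundant gene was DSP, and KRT5 was at 0 in 1 FS, 3 PNST and 4 PWT. Of 10 keratinocyte markers tested, 10 were positive in FS (median 0.68) and 10 negative in PWT (median -1.18), with 0 called by edgeR. The levels of SLC2A1 in S1-04, S1-05 and S2-03 were 7.54, 11.7 and 6.87 CPM, below all FS, with S1-05 the highest of the 12 other tumors and S2-03 the second highest PWT. The part of keratinocytes in the level of SLC2A1 was not tested. The call of SLC2A1 also held without the 5 tumors with the most keratinocyte markers, again a choice made after seeing the data, and by edgeR that of HIF1A was lost there (1.17, adjusted p = 0.254).

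Summed proliferation markers (12 of 12) were 233 CPM in S1-02, 677 in S1-11, 234 in S1-12 and 1141 in S2-06, against 108 to 156 in PNST and 144 to 291 in PWT. Their most abundant gene was MKI67, and 7 of 12 were higher in FS. The part of proliferation in the levels of the 10 genes was not tested. Summed fibroblast markers (9 of 9, COL1A1 most abundant) ran from 19623 to 102280 CPM in FS, 19739 to 38829 in PNST and 10808 to 25136 in PWT, with 3 of 9 higher in FS and 1 lower in PWT. Pericyte and smooth muscle markers (12 of 12, PDGFRB most abundant) summed to 691 to 2188 CPM in FS, 446 to 964 in PNST and 453 to 916 in PWT, with 3 of 12 higher in FS and, by edgeR, 0 in PWT. Macrophage markers (12 of 12, MRC1 most abundant) summed to 225 to 1678, 296 to 731 and 257 to 995 CPM, with 1 of 12 higher in FS. Of these, 12 had positive log2 fold changes in FS (median 0.71), and in PWT 7 were negative and 5 positive (median -0.28). The part of these cells in the results was not tested.

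The tumor types could be checked against their markers only in part. Of the 12 pericyte and smooth muscle markers, 11 had negative log2 fold changes in PWT (median -0.86) and 11 had positive ones in FS (median 1.4), and the median sum was lowest in PWT (588 CPM, against 838 in PNST and 1305 in FS). Schwann cell markers (10 of 10, PMP22 most abundant) summed to 149 to 222 CPM in FS, 171 to 715 in PNST and 170 to 356 in PWT, and edgeR called 0 of the 5 tested in each type. In PNST, where edgeR called 0 of all genes, the 5 tested all had positive log2 fold changes (median 0.37). The median sum was also highest there (336 CPM, against 294 in PWT and 192 in FS), with overlapping ranges. Of single markers in PNST, SOX10 had 2.34 to 4.83 CPM, while OLIG2 was at 0 in 6 of 6 and CDH19 in 3. Perineurial markers (5 of 5, CLDN1 most abundant) summed to 73.6 to 436 CPM in FS, 154 to 890 in PNST and 331 to 966 in PWT, and of 4 tested 1 was higher (SLC2A1) and 1 lower in FS. Without CLDN1, the sums were 73.2 to 383, 74.8 to 264 and 59.2 to 265 CPM. The part of perineurial cells in the level of SLC2A1 was not tested. Endothelial markers (9 of 9, VWF most abundant) summed to 256 to 529 CPM in FS, 146 to 654 in PNST and 177 to 523 in PWT, and edgeR called 0 of 9 in each type. It also called 0 in each type among 2 neutrophil, 3 lymphocyte, 2 erythroid and 6 adipocyte markers tested.

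**Figure D5:**
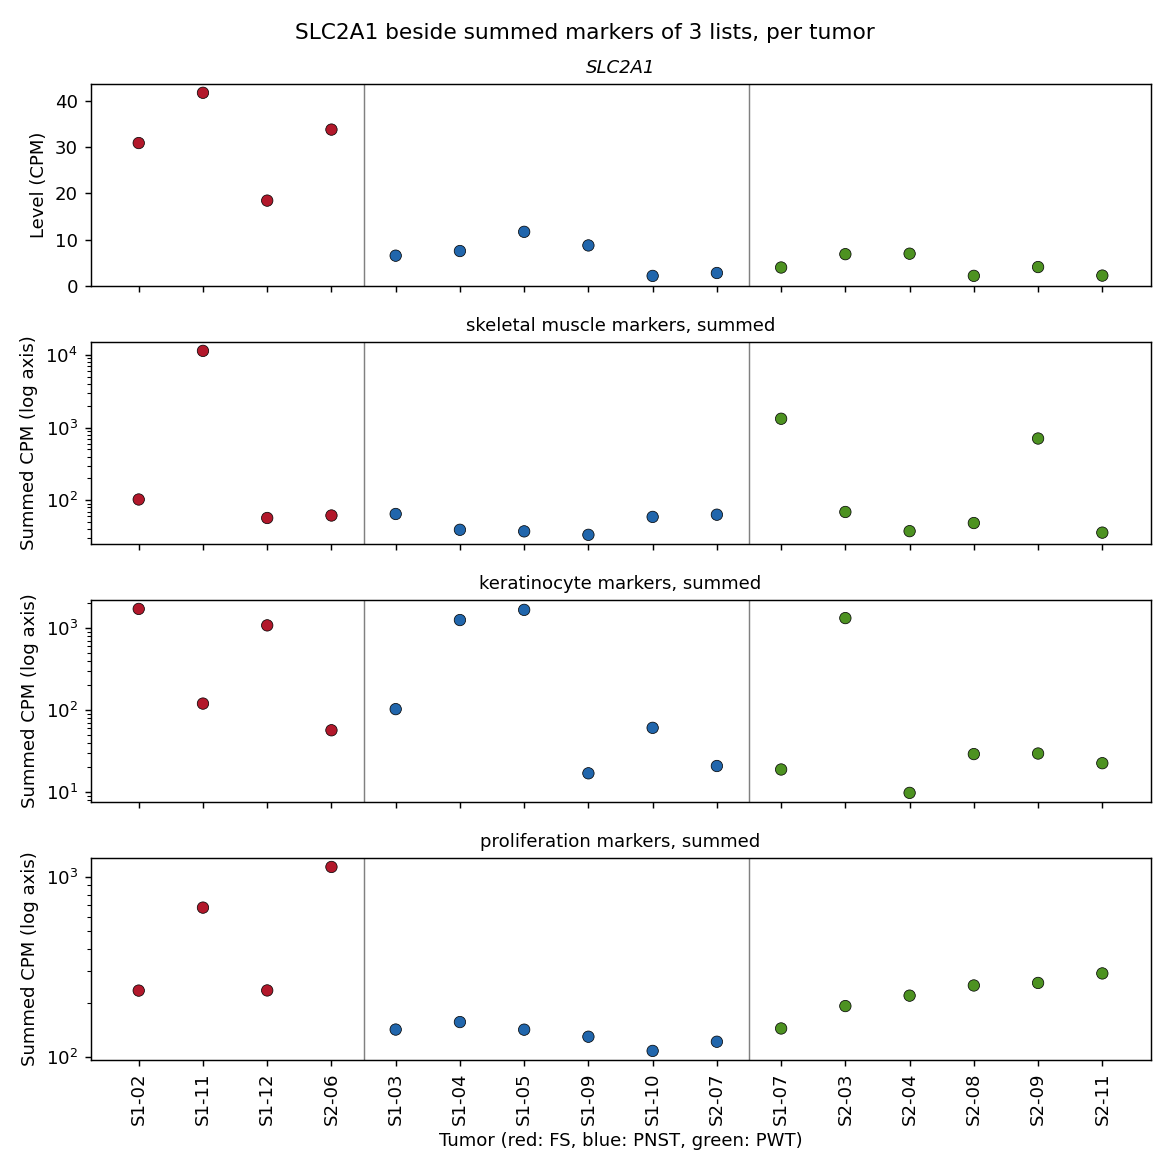
Level of SLC2A1 and summed levels of skeletal muscle, keratinocyte and proliferation markers in CPM (vertical axes, logarithmic for the sums) in each tumor, ordered by type. SLC2A1 is high in all 4 FS, whereas muscle markers are high in S1-11, S1-07 and S2-09 and keratinocyte markers in S1-02, S1-12, S1-04, S1-05 and S2-03.

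Tumor size and grade were compared as well, since low oxygen is more common in large tumors. For size, edgeR fitted the log2 of the largest dimension with the type as a term, so that a fold change is per doubling of size, and called genes at an adjusted p below 0.05. It called 0 of the 10 genes and 0.844% of all genes (5 higher and 125 lower with size, of 15408), with 1 of the 10 and 1243 of all genes at an unadjusted p below 0.05, and DESeq2 also called 0 of the 10. The log2 fold changes per doubling were positive for 9 of the 10 (median 0.21, beside -0.0012 over all genes), and the median was -0.058 without the 5 tumors with the most keratinocyte markers. Markers of other cells moved with size too. Of 10 keratinocyte markers tested, 10 were negative (median -2.85) and 6 were called lower, and of 3 lymphocyte markers 3 were negative and 2 were called lower. Their part in the values of the 10 genes was not tested. The highest log2 fold change of the 10 was that of CA9, 0.57 per doubling (SE 0.249, adjusted p = 0.565), which was the 1 gene at an unadjusted p below 0.05. CA9 was at 18.1 CPM in S1-11, the 20 cm tumor, at 3.98 in S1-03, of 9 cm, and at 6.65 in S2-06, of 8 cm. Of the 5 tumors of 5 to 6.5 cm, the PNST S1-09 had 15.1 CPM and the 4 PWT, with 1 or 2 counts each, 0.748 to 2.79.

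For grade, 7 tumors of grade 2 or 3 were compared with 7 of grade 1, with the type as a term, and 2 tumors of grade 1/2 were left out. EdgeR called 0 of the 9 genes tested and 0% of all 14691 genes, with 1 of the 9 and 836 of all genes at an unadjusted p below 0.05. DESeq2 called 0 of the 10 genes and 8 of all. The 1 gene was HK2, with 0 to 36.7 CPM in the higher grades (median 4.55) and 2.45 to 8.97 in grade 1 (median 7.23), so the groups overlapped. The FS of higher grade had 36.7 (S1-11), 9.21 (S1-12) and 34.7 CPM (S2-06). The other tumors of higher grade had 4.55 (S1-03), 0.725 (S1-10), 1.14 (S1-07) and 0 CPM (S2-11), and of these only S1-03 lay within the range of grade 1. The log2 fold change of HK2 within types was -1.85 (SE 0.678) and did not pass in edgeR (adjusted p = 0.848). Of the 9 genes tested, 4 had positive and 5 negative log2 fold changes (median -0.056, beside -0.011 over all genes). Some markers of other cells were mostly negative for grade, with 0 called by edgeR. Of 10 keratinocyte markers tested, 10 were negative (median -6.61), and of 12 macrophage markers 11 were (median -0.65). Of 12 pericyte and smooth muscle markers, 8 were negative and 4 positive (median -0.75), whereas of 4 skeletal muscle markers 3 were positive (median 0.54). Their part in the values of the 10 genes was not tested. CA9 had too few counts to be tested for grade. The grade 1 tumors held 0 FS, so in this comparison FS added nothing to the difference.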

How the data were processed

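Ion Proton reads from ribosomal-RNA-depleted RNA of 16 tumors were aligned by the authors with STAR2 to ROS-canfam-01 and counted per gene with HTSeq (version and strand setting not stated). The deposited values are raw counts for 41818 genes in 34 columns, 1 per run, all used here, with 5 further lines for reads on no gene. Per tumor, 22.9% to 30.6% of reads fell on genes, 41.8% to 66.7% lay outside genes and 9.11% to 31.6% were not unique. Reads shared with near-identical gene copies were not analysed here.

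Runs of a tumor were summed, TMM factors were computed, and edgeR 4.0.16 in R 4.3.3 tested the 15408 genes (14691 for grade) that reached 10 counts in 4 or more tumors with its quasi-likelihood test, which was also tested on simulated data. The SE is the absolute log2 fold change divided by the square root of F. Figures were drawn with matplotlib 3.10.9 in Python 3.11.15.

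Alternatives were RLE factors, DESeq2 1.42.0, no count filter, 1 model of 3 types or no term for type, the prefix as a term, histological groups, S1-10 and S2-08 left out, S1-04 and S1-05 summed, each tumor left out and plain CPM. Chosen after seeing the data were the tumors left out for muscle or keratinocyte markers and each prefix alone. DESeq2 was run with 3 settings, of which the first was its filtering set for 0.05 without genes at 0 counts and the second its default filtering without those genes. The default on all genes, as the plan had named it, was adopted last, after the counts of the earlier settings had been compared with published ones, and all 3 are reported.

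The members and lists were chosen with earlier results of these data known. The text names the 10 genes, every gene of a pathway list that was called for a type (at most 8 per list and type) or the 2 of smallest p where none was, the 3 nearest profiles of each gene, and each marker list's most abundant gene. Some values were added outside this rule. They are those in FS of SLC2A3, SLC2A12, EPAS1, ARNT, VHL, CUL2, EGLN3 and the classical targets of HIF-1. The markers SOX10, OLIG2, CDH19 and KRT5 were added in the same way. A few results that this rule would name are not reported here. Of the list genes, 5 were not in the table (SLC2A5, LOR, HBB, HBA1 and HBA2). Promoter sequences were not used here.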

Additional observations from a re-analysis of the deposited data

Results flagged for a closer look

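Of 30 groups (10 genes in 3 tumor types), 3 held a tumor far from the others of its type in CPM, its gap to the next tumor being a large share of the range of the type. The limit used is passed by chance in about 1 in 20 groups where values follow a normal distribution (not checked for CPM). S1-03 had 99.2 CPM of PFKP, with the next PNST at 46.2 CPM. S1-09 had 15.1 CPM of CA9, with the next PNST at 4.09 CPM. S2-07 had 197 CPM of HIF1A, with the next PNST at 72.4 CPM. On a log scale, log2(CPM + 1), looked at after seeing the data, 0 of these 3 passed the limit, and 2 other groups did, PGK1 and PKM in FS, each with S1-12 as the lowest tumor. Which tumors stand apart thus depends on the scale, and what sets each apart was not tested.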

How the results depend on the processing

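In FS, the median log2 fold change of the 10 genes stayed between 0.64 and 1.13 over 30 alternatives, and in PWT between -1.26 and -0.72. The other medians of these genes changed sign. In PNST the median was -0.066, and -0.37 (within S1 tumors) to 0.62 (within S2 tumors) over 30 alternatives. For size it was 0.21, and -0.058 (without keratinocyte-rich tumors) to 0.31 over 26. For grade it was -0.056, and -0.32 (without keratinocyte-rich tumors) to 0.58 (with no term for type) over 24. The direction of each of the 10 genes was the same in FS under all alternatives run and in PWT under all but 1, LDHA within S1 tumors (0.092). The median LDHA level in PWT was 128 as plain CPM.

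Members called in FS were 1 with histological groups, 1 without S1-07, S1-11 and S2-09, 0 within S2 tumors, and 1 (without S1-11) to 3 with single tumors left out. Genes called in FS were 205, 657 and 93 under the first 3 of these, 825 within S1 tumors, and 911 (without S1-11) to 1583 with single tumors left out. For PNST, where edgeR called 0 genes, there were 291, 293 and 290 with DESeq2 (default, filtering set for 0.05, without genes at 0), 2 with no count filter, 170 in 1 model of 3 types, 1 without the 5 tumors rich in keratinocyte markers, 2 within S2 tumors, and 0 to 3 with single tumors left out (1 without S1-03, S1-04 or S1-05, 3 without S1-07).

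Members called in PWT were 2, 3 and 3 with the DESeq2 settings, PFKP being the third (adjusted p = 0.0476 and 0.0494 against 0.0512 with the default, and 0.0476 to 0.956 over all alternatives). They were 2 in 1 model of 3 types and 0 with no count filter, the prefix as a term, histological groups, without S1-10 and S2-08, with S1-04 and S1-05 summed, without muscle-rich or keratinocyte-rich tumors, and within either prefix, and 0 to 1 with single tumors left out. Genes called in PWT were 875, 879 and 880 with DESeq2, 128 with no filter, 859 in 1 model of 3 types, 140 without S1-10 and S2-08, 20 without muscle-rich tumors, and 0 with the prefix as a term, histological groups, without keratinocyte-rich tumors and within either prefix. With single tumors left out they ran from 11 (S2-11) to 487, and leaving out S2-04 gave 14, S2-03 148, S2-09 153, S1-09 212 and S1-11 216.

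Genes called for size were 220, 217 and 220 with DESeq2, 638 with no filter, 51 with S1-04 and S1-05 summed, 0 without keratinocyte-rich tumors, and 50 (S1-05) to 159 with single tumors left out, with 52 without S1-04, 56 without S2-03 and 60 without S1-02. For grade they were 8, 7 and 8 with DESeq2, 442 with no filter and 0 without each single tumor. The cause of these changes was not tested, beyond the fewer tumors in some alternatives.

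No paired analysis was possible because each tumor has 1 type and the labels number tumors, not matched replicates. Of the 6 PWT 1 had the prefix S1, so for PWT the prefix as a term rests on few tumors. S1-12 had 507728 reads on genes, where 3 counts make 5.52 CPM, so low levels in it are uncertain. SLC2A1 was not tested within S2 tumors for want of counts, and CA9 was tested in 23 alternatives.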
